A study of Mus musculus with 6 samples.

Results

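The genes described here are 10 genes of the MHC class II pathway: the chains H2-Aa, H2-Ab1 and H2-Eb1, the peptide-loading chains H2-DMa, H2-DMb1 and H2-DMb2, their inhibitors H2-Oa and H2-Ob, the invariant chain Cd74 and the transactivator Ciita. They were taken by gene symbol, and each matched 1 of the 55426 genes of the expression table. The RNA came from abdominal aortas of male C57BL/6J mice aged 8 to 10 weeks when tamoxifen was started, and was isolated 2 weeks after 75 mg/kg/day by gavage for 5 days. The knockout group, called Prdm16SMKO, had floxed Prdm16 (Prdm16 fl/fl) and Myh11-CreERT2, and the control group had Myh11-CreERT2 with wild-type Prdm16. Each group had 3 libraries, which the labels number as replicates without saying whether each came from 1 mouse, so the p-values below measure the spread between these libraries. Myh11-CreERT2 is carried on the Y chromosome and is active in vascular smooth muscle cells (VSMCs) after tamoxifen, so the knockout was aimed at these cells. Which cells of the aorta lost or kept Prdm16 cannot be read from bulk RNA.

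MHC class II molecules are pairs of an alpha and a beta chain that carry peptides from the endosome to the cell surface, where CD4+ T cells read them. Newly made pairs bind the invariant chain, proteases trim it away, and H2-DM then exchanges the remaining fragment for a peptide, while H2-O restrains H2-DM. Dendritic cells, B cells and many macrophages make class II constantly, and several other cell types, VSMCs and endothelial cells among them, can be induced to make it by interferon gamma. In either case transcription depends on Ciita, a coactivator that binds no DNA itself and is held at the class II promoters by factors on the conserved X and Y boxes.

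Prdm16, the targeted gene, was at 33.4, 36.8 and 30.8 TPM (each gene's share of a library's transcripts, corrected for transcript length) in control replicates 1 to 3, and at 20.8, 27.7 and 14.8 TPM in Prdm16SMKO replicates 1 to 3. The groups did not overlap, and the log2 fold change was -0.70 with an adjusted p = 0.376 (limma, Benjamini-Hochberg). The test covered the 15775 genes whose mean reached 0.5 TPM, and 56 of them, or 0.355%, had an adjusted p under 0.05. The VSMC markers identified the tissue, with Myh11 (smooth muscle myosin) at 1691 to 3242 TPM in control and 1488 to 2507 TPM in Prdm16SMKO libraries. TPM values keep no read depth, so no counting error could be attached to them. The share of TPM from mitochondrial genes was 15.8% to 27.4% and that from the 45S ribosomal RNA locus was 15.5% to 31.4% over the 6 libraries, with overlap between the groups for both.

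Of the 10 genes, 8 lie on chromosome 17 and 7 had a promoter window in the RefSeq table for GRCm38.p6, whose windows run from base -250 to base 49 relative to a transcription start. H2-Ab1, Cd74 and Ciita had no entry. The 60 bases around the Y box are shown for the 6 genes with its letters near their start, because Ciita is known to act on the family through such sequences. They are written along the gene's strand, and capitals mark the letters GATTGG, which hold the reverse of the Y box core CCAAT, and the letters ACNGATG, a pattern of the X box.
H2-Aa, chr17:34287858-34287917, minus strand: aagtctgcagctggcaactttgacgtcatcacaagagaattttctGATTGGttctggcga
H2-Eb1, chr17:34305762-34305821, plus strand: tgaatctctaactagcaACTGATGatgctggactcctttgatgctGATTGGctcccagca
H2-DMb1, chr17:34153084-34153143, plus strand: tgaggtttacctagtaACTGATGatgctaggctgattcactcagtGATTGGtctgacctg
H2-DMb2, chr17:34145113-34145172, plus strand: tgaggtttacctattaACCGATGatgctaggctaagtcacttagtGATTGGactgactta
H2-Oa, chr17:34092290-34092349, plus strand: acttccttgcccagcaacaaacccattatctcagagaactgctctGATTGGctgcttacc
H2-Ob, chr17:34238802-34238861, plus strand: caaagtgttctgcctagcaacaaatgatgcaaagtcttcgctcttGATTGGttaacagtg

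The letters GATTGG began at base -44 in H2-Oa, -49 in H2-Aa, -58 in H2-Ob, -60 in H2-Eb1, -62 in H2-DMb1 and -91 in H2-DMb2, counted from the annotated start. In H2-Eb1 the X pattern ended 21 bases before the Y box, and in H2-DMb1 and H2-DMb2 it ended 22 bases before it. H2-Oa had the X pattern farther away, 86 bases before its Y box, and H2-Aa held it only on the opposite strand near the far end of its window. H2-Ob held no match to it. Only the letters ACNGATG were searched for the X box, so a gene without them near its Y box may still have an X box of other letters there. H2-DMa has 2 annotated starts: the first window held none of these letters, and the second held GATTGG at base -199. The stretches of H2-DMb1 and H2-DMb2 were the same at 52 of 60 bases when laid side by side with no gaps, against 15 to 28 of 60 for every other pair of stretches compared, among them the stretch of the second H2-DMa window. Each stretch was cut with GATTGG at the same place, so these 6 bases were the same in every pair by construction.

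Over all 32851 RefSeq promoter windows, CCAAT was found on either strand in 37.4%, GATTGG in 16.1%, ACNGATG in 9.85%, and GATTGG together with ACNGATG in 1.52%. CCAAT and GATTGG overlap by construction. The letters GAAANNGAA, a pattern of interferon-type elements, were found in 8.56% of all windows and in none of the 8 windows of the members. A match of letters is a description of the sequence and says nothing about binding in the aorta.

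**Figure D1:**
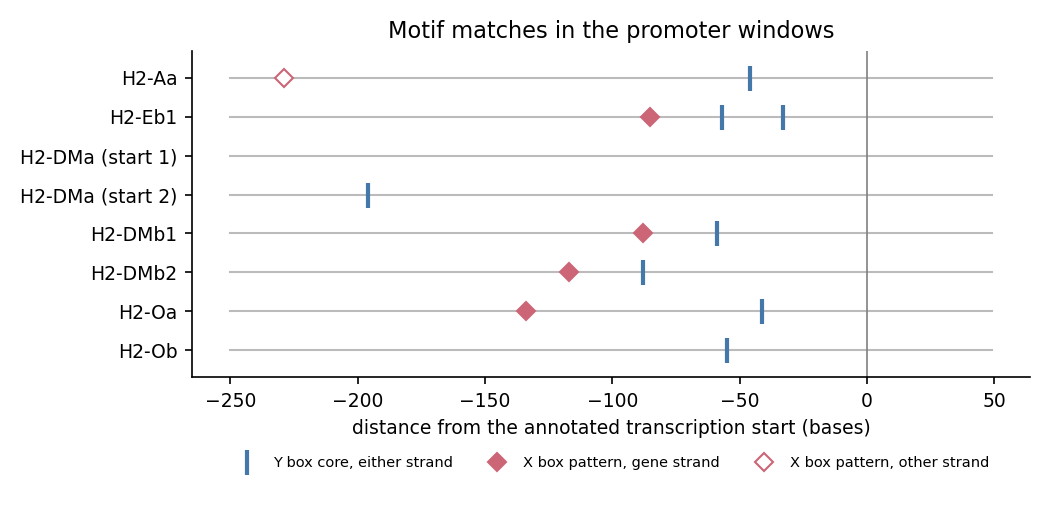
Positions of Y box core letters (CCAAT, either strand, blue bars) and X box letters (ACNGATG, red diamonds, open on the opposite strand) in the 8 promoter windows of 7 class II genes, with the centre of each match in bases from the annotated transcription start on the x axis. In 6 genes a Y box core lies less than 100 bases before the start, and H2-DMa shows 1 match far from its second start and none in its first window.

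In the aorta the 3 peptide-binding chains and Cd74 were the abundant part of the pathway. In Prdm16SMKO libraries these 4 genes had higher TPM than in controls, with no overlap between the groups and log2 fold changes of 1.35 to 1.38. The 6 remaining genes differed by 0.17 to 0.64 on this scale of log2(TPM + 0.5), where the added 0.5 shrinks the differences of genes with low TPM. The plain ratio of the means was 2.49 to 2.76 for the 4 genes, 2.65 for H2-DMb2 and 1.29 to 1.84 for the rest. None of the 8 members tested (all but H2-DMb2 and H2-Oa) passed an adjusted p under 0.05 in the limma fit over all genes, against 0.355% of all genes tested. Of the 8 members tested, 5 (H2-Aa, H2-Ab1, H2-Eb1, Cd74 and H2-DMa) were higher in Prdm16SMKO with an unadjusted p under 0.05, against 4.88% of all genes tested in that direction. The groups did not overlap, with Prdm16SMKO above control, in 7 of the 10 members and in 6 of the 8 tested, against 7.02% of all genes tested. Because these are bulk aortas, more cells that make class II and more class II RNA per cell cannot be told apart.

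The alpha chain H2-Aa (ENSMUSG00000036594, chr17:34282744-34287823 of GRCm38, minus strand) pairs with the product of H2-Ab1 to form the I-A molecule. Its level was 22.4, 19.9 and 11.3 TPM in control replicates 1 to 3, and 31.7, 62.9 and 44.7 TPM in Prdm16SMKO replicates 1 to 3. The lowest Prdm16SMKO library, replicate 1, was above the highest control, also replicate 1, and control replicate 3 was the lowest of all. The means were 17.9 ± 5.78 and 46.4 ± 15.7 TPM (SD, n = 3 each). The log2 fold change on the scale of log2(TPM + 0.5) was 1.36 with a standard error of 0.31 and a 95% interval of 0.66 to 2.05, and the adjusted p was 0.150 (limma, Benjamini-Hochberg).

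H2-Ab1, the beta chain of I-A (ENSMUSG00000073421, chr17:34257689-34269419, plus strand), was at 20.5, 19.4 and 14.1 TPM in the controls and at 30.98, 70.6 and 47.6 TPM in Prdm16SMKO libraries. The order of the libraries was that seen for H2-Aa: replicate 2 was the highest of the knockouts and replicate 3 the lowest of the controls. Its means of 18.0 ± 3.42 and 49.7 ± 19.9 TPM (SD, n = 3 each) corresponded to 1.38 on the log2 scale (standard error 0.29, 95% interval 0.72 to 2.04; limma, adjusted p = 0.11).

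H2-Eb1 (ENSMUSG00000060586, chr17:34305867-34316674, plus strand) encodes the beta chain of the second class II molecule, I-E, whose alpha chain gene H2-Ea is not expressed in C57BL/6 mice. H2-Eb1 RNA was at 26.0, 21.3 and 10.1 TPM in control and at 32.7, 60.3 and 50.0 TPM in Prdm16SMKO libraries. H2-Ea was listed at 0 in all 6 libraries, so the beta chain RNA was measured without that of its partner. The means of H2-Eb1 were 19.1 ± 8.15 and 47.7 ± 14.0 TPM (SD, n = 3 each). Its log2 fold change was 1.35, with the widest standard error of the 4 abundant genes, 0.35, and a 95% interval of 0.56 to 2.15 (limma, adjusted p = 0.234).

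Cd74 (ENSMUSG00000024610, chr18:60803848-60812652, plus strand), the invariant chain, had the highest TPM of the pathway in every library. Its level was 43.5, 37.2 and 27.0 TPM in control and 65.6, 125 and 90.3 TPM in Prdm16SMKO libraries. Each Prdm16SMKO library was above each control, and the means were 35.9 ± 8.33 and 93.7 ± 30.0 TPM (SD, n = 3 each). The log2 fold change was 1.35 (standard error 0.26, 95% interval 0.75 to 1.94), and the adjusted p of 0.0906 was the lowest among the members (limma, Benjamini-Hochberg). Cd74 lies on chromosome 18, away from the chains on chromosome 17.

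Summed over H2-Aa, H2-Ab1, H2-Eb1 and Cd74, the level was 112, 97.7 and 62.6 TPM in control and 161, 319 and 233 TPM in Prdm16SMKO libraries. The mean sums were 90.9 ± 25.6 and 238 ± 79.2 TPM (SD, n = 3 each), which is 2.61-fold higher in Prdm16SMKO. An exact two-sided permutation test gave p = 0.1, the smallest value that 3 libraries against 3 allow. The 4 genes made up 88.2% of the summed TPM of the pathway in control and 93.1% in Prdm16SMKO libraries.

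**Figure D2:**
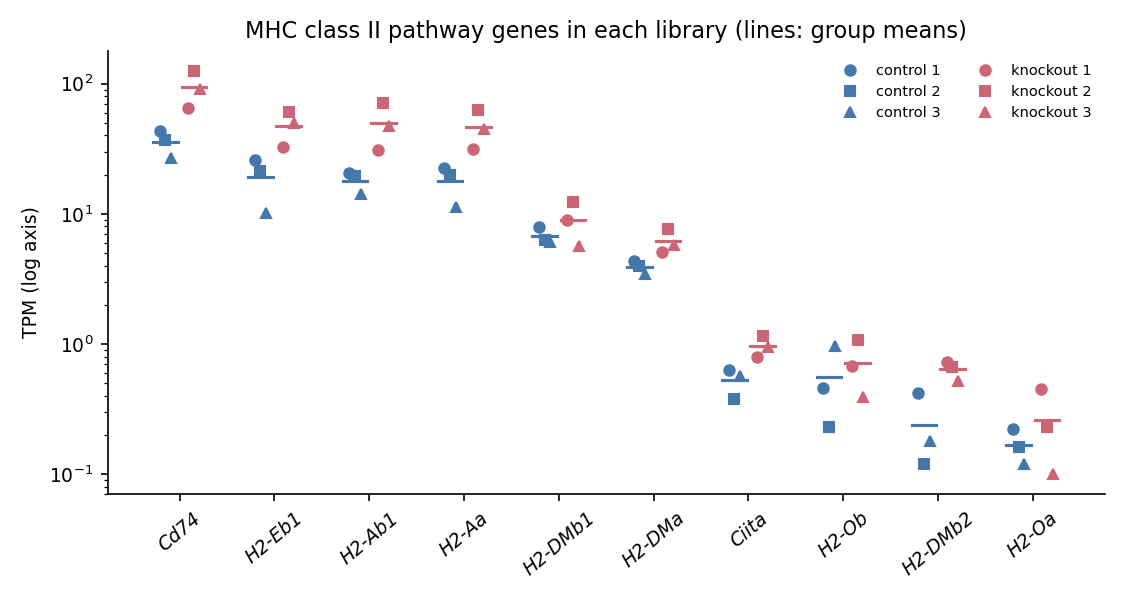
TPM of each class II gene (x axis) in each of the 6 libraries on a log axis, control in blue and knockout (Prdm16SMKO) in red, with symbols for the replicate number and short lines at the group means. The 4 abundant genes at the left lie between 10.1 and 125 TPM with every knockout library above every control, and the groups overlap for H2-DMb1, H2-Ob and H2-Oa.

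The peptide-loading chains were lower in level than these 4 genes, and H2-DMa and H2-DMb1 had smaller log2 fold changes. H2-DMa (ENSMUSG00000037649, chr17:34119541-34139101, plus strand), the alpha chain of H2-DM, was at 4.34, 3.98 and 3.47 TPM in control and at 5.07, 7.70 and 5.80 TPM in Prdm16SMKO libraries. The groups did not overlap, and the log2 fold change was 0.58 (standard error 0.21, 95% interval 0.11 to 1.05; limma, adjusted p = 0.451). On the opposite strand, Brd2 covers 360 exonic bases of H2-DMa, or 10.4% of them, and whether the counting used strand is not given in the sources used here. Brd2, a bromodomain protein gene, was at 81.0 to 98.9 TPM in control and 77.1 to 90.6 TPM in Prdm16SMKO libraries.

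H2-DM has a single alpha chain but 2 beta chain genes in the mouse, H2-DMb1 and H2-DMb2. H2-DMb1 (ENSMUSG00000079547, chr17:34153072-34160230, plus strand) was at 7.95, 6.34 and 6.07 TPM in control and at 8.99, 12.3 and 5.68 TPM in Prdm16SMKO libraries. Prdm16SMKO replicate 3 was below all controls, although in that library the 4 abundant genes were above all controls. The log2 fold change of H2-DMb1 was 0.33 (standard error 0.27, 95% interval -0.28 to 0.94; limma, adjusted p = 0.862).

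H2-DMb2 (ENSMUSG00000037548, chr17:34143307-34151555, plus strand) was at 0.42, 0.12 and 0.18 TPM in control and at 0.72, 0.67 and 0.52 TPM in Prdm16SMKO libraries. Its groups did not overlap (exact permutation test, p = 0.1), but its mean was under 0.5 TPM and it was not part of the limma test. Its log2 difference of 0.64 is held down by the pseudocount of 0.5 TPM, since the ratio of its means, 0.240 and 0.637 TPM, was 2.65, against 2.60 for H2-Aa. The ratio of H2-DMb2 to H2-DMb1 was 0.0528, 0.0189 and 0.0297 in control and 0.0801, 0.0547 and 0.0915 in Prdm16SMKO libraries, with no overlap (exact permutation p = 0.1, or 0.243 adjusted over the 17 ratios computed). Of the 31-base words in H2-DMb1 transcripts, 517 also occur in H2-DMb2, which is 31.4% of those of H2-DMb1 and 29.7% of those of H2-DMb2, so the division of reads between them is uncertain. The promoter stretches printed above that were the same at 52 of 60 bases belong to this pair.

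H2-Oa (ENSMUSG00000024334, chr17:34092340-34095234, plus strand) and H2-Ob (ENSMUSG00000041538, chr17:34238903-34254414, plus strand) encode the alpha and beta chains of H2-O, which is best known from B cells. H2-Oa was at 0.22, 0.16 and 0.12 TPM in control and at 0.45, 0.23 and 0.10 TPM in Prdm16SMKO libraries. H2-Ob was at 0.46, 0.23 and 0.97 TPM in control and at 0.68, 1.07 and 0.39 TPM in Prdm16SMKO libraries. Both genes overlapped between the groups, and exact permutation tests gave p = 0.6 for H2-Oa and p = 0.7 for H2-Ob. H2-Ob passed the expression minimum, with a log2 fold change of 0.23 (95% interval -0.69 to 1.14; limma, adjusted p = 0.955) that was -0.01 without control replicate 2. H2-Oa shares 22.8% of its exonic bases with BC051537 on the opposite strand.

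Ciita (ENSMUSG00000022504, chr16:10480059-10528418, plus strand), the transactivator, was at 0.63, 0.38 and 0.57 TPM in control and at 0.80, 1.16 and 0.94 TPM in Prdm16SMKO libraries. All 3 Prdm16SMKO libraries were above all controls, with means of 0.527 ± 0.131 and 0.967 ± 0.181 TPM (SD, n = 3 each). The exact permutation test gave the smallest value possible, p = 0.1, and the log2 fold change was 0.52 with a 95% interval that included 0 (-0.19 to 1.22; limma, adjusted p = 0.760). At levels near the pseudocount of 0.5 TPM, a fold change on the log2(TPM + 0.5) scale understates the ratio of the means. Ciita shares 3.45% of its exonic bases with Dexi on the opposite strand.

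**Figure D3:**
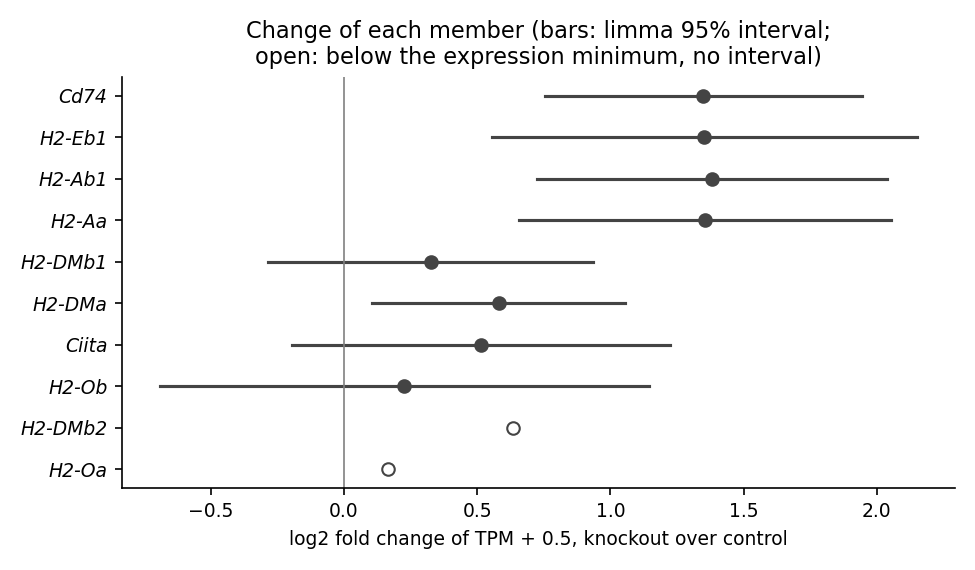
Log2 fold change of TPM + 0.5, knockout over control, on the x axis for each class II gene, with the limma 95% interval as a bar for the 8 genes tested and open circles without an interval for H2-DMb2 and H2-Oa. H2-Aa, H2-Ab1, H2-Eb1 and Cd74 lie between 1.35 and 1.38, and the intervals of H2-DMb1, Ciita and H2-Ob include 0.

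By control mean, the order of the levels in TPM was Cd74, H2-Eb1, H2-Ab1, H2-Aa, H2-DMb1, H2-DMa, H2-Ob, Ciita, H2-DMb2 and H2-Oa. H2-Eb1, H2-Ab1 and H2-Aa, with means of 17.9 to 19.1 TPM, differed by less than the spread between the controls. The same held for H2-Ob and Ciita and for H2-DMb2 and H2-Oa. The control libraries of Ciita and H2-DMb2 also overlapped, although their means of 0.527 and 0.240 TPM lay farther apart than either SD. Cd74 was above H2-Eb1 in every pair of control libraries, and H2-Aa above H2-DMb1, H2-DMb1 above H2-DMa and H2-DMa above H2-Ob likewise.

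Ratios within a library show how evenly the members differed. The ratio of H2-Ab1 to H2-Aa was 0.917, 0.976 and 1.24 in control and 0.977, 1.12 and 1.06 in Prdm16SMKO libraries. That of Cd74 to H2-Aa was 1.95, 1.87 and 2.38 in control and 2.07, 1.99 and 2.02 in Prdm16SMKO libraries. Both ratios, and that of H2-Eb1 to H2-Aa, overlapped between the groups, with exact permutation p-values of 0.9 to 1.

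For the loading chains H2-DMa and H2-DMb1 the ratios to H2-Aa were lower in Prdm16SMKO libraries. The ratio of H2-DMa to H2-Aa was 0.194, 0.200 and 0.306 in control and 0.160, 0.122 and 0.130 in Prdm16SMKO libraries, a log2 difference of -0.74. That of H2-DMb1 to H2-Aa was 0.356, 0.319 and 0.535 in control and 0.284, 0.195 and 0.127 in Prdm16SMKO libraries, a log2 difference of -1.04. Neither ratio overlapped between the groups, and each had an exact permutation p = 0.1, or 0.243 after Benjamini-Hochberg adjustment over the 17 ratios, so neither passed a threshold of 0.05, which this design cannot reach. The ratio of Ciita to H2-Aa overlapped between the groups (exact permutation p = 0.3).

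Other genes of the class II region were compared next, because the class II genes lie among the genes of class I peptide supply. Of the 8 listed (H2-Ea, H2-Eb2, Btnl2, Psmb8, Psmb9, Tap1, Tap2 and Brd2), 5 were tested, 4 of them were higher and 1 lower in Prdm16SMKO, and the median log2 fold change was 0.53 against 0.02 for all genes tested. Of all genes tested, 54.2% were higher in Prdm16SMKO and 0.355% had an adjusted p under 0.05 (limma). These shares also stand beside the counts of the lists below. Psmb8, a catalytic subunit of the immunoproteasome, was the gene that passed the test. It was at 14.4, 13.9 and 12.2 TPM in control and rose to 24.5, 31.9 and 30.6 TPM in Prdm16SMKO libraries, 1.07 higher on the log2 scale (standard error 0.17; limma, adjusted p = 0.0416). That call was lost under 8 of 17 alternatives, among them the fits without any 1 library other than Prdm16SMKO replicate 1, and its adjusted p ran from 0.00688 to 0.176 over all of them (limma).

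Psmb9, a second immunoproteasome subunit, was at 6.49, 4.65 and 2.75 TPM in control and at 7.93, 7.88 and 7.53 TPM in Prdm16SMKO libraries. Tap1, which with Tap2 carries peptides into the endoplasmic reticulum, was at 4.47, 5.14 and 3.84 TPM in control and at 6.30, 7.26 and 6.37 TPM in Prdm16SMKO libraries. The groups did not overlap for either gene, and the adjusted p-values were 0.449 for Psmb9 and 0.437 for Tap1 (limma, Benjamini-Hochberg). Tap2 was at 13.2 to 17.4 TPM in control and 17.6 to 19.3 TPM in Prdm16SMKO libraries, a log2 fold change of 0.27 with an adjusted p = 0.746 (limma).

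Of the 7 genes for endosomal processing, 0 passed the adjusted test and 1, Ctss, had an unadjusted p under 0.05. Ctss encodes cathepsin S, the protease that makes the last cuts in the invariant chain. It was at 5.77, 5.05 and 3.02 TPM in control and at 9.14, 14.1 and 10.6 TPM in Prdm16SMKO libraries, 1.23 higher on the log2 scale (standard error 0.26; limma, adjusted p = 0.118). The ratio of Ctss to H2-Aa was 0.258, 0.254 and 0.266 in control and 0.288, 0.224 and 0.238 in Prdm16SMKO libraries, and overlapped between the groups (exact permutation p = 0.6). The median of the list was -0.02. The broadly expressed cathepsins had log2 fold changes close to 0, with Ctsd at 193 to 276 TPM in control and 213 to 253 TPM in Prdm16SMKO libraries (log2 fold change 0.06) and Ctsl at 152 to 192 and 162 to 225 TPM (0.08).

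The factors that hold Ciita at the promoter were listed as 7 genes, of which 2 were higher, 5 lower and 0 past an unadjusted p of 0.05, with a median log2 fold change of -0.03. Rfx5, the DNA-binding subunit of the X box complex, was at 10.1, 8.95 and 5.59 TPM in control and at 8.03, 8.06 and 6.04 TPM in Prdm16SMKO libraries. Nfya, a subunit of the factor that binds the Y box letters, was at 23.2 to 29.5 TPM in control and 19.0 to 26.0 TPM in Prdm16SMKO libraries (log2 fold change -0.17; limma, adjusted p = 0.911). Rfxap, another subunit of the X box complex, had a log2 fold change of 0.13 (limma, adjusted p = 0.922).

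Interferon gamma signalling was listed as 8 genes, of which 7 were tested and 0 passed the adjusted test, with a median log2 fold change of 0.01. Ifng, the cytokine itself, was listed at 0 in all 6 libraries. Irf1, an early target of the pathway that acts on a Ciita promoter, was at 13.04, 11.8 and 11.1 TPM in control and at 16.1, 17.5 and 15.9 TPM in Prdm16SMKO libraries. Its groups did not overlap, and its log2 fold change was 0.45 with an unadjusted p under 0.05 (limma, adjusted p = 0.421). The receptor chains Ifngr1 and Ifngr2 had log2 fold changes of 0.19 and -0.01.

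Cd74 also serves at the cell surface as a receptor for the cytokine Mif, together with Cd44. Of 4 such partners, 3 were tested, all higher in Prdm16SMKO, against 54.2% of all genes tested. Among them 1, Cd44, had an unadjusted p under 0.05 (limma), against 4.88% of all genes tested in that direction. Cd44 was at 11.4, 19.0 and 12.7 TPM in control and at 29.3, 26.9 and 24.2 TPM in Prdm16SMKO libraries, with a log2 fold change of 0.91 (limma, adjusted p = 0.161). Mif was at 69.6 to 95.4 TPM in control and 77.5 to 115 TPM in Prdm16SMKO libraries, with overlap.

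For the ubiquitin ligases that remove class II from the surface and the related gene Cd83, 3 genes in all, 0 had an unadjusted p under 0.05. Marchf8 was at 19.6 to 25.4 TPM in control and 20.98 to 27.3 TPM in Prdm16SMKO libraries, while Marchf1, the ligase of professional antigen-presenting cells, was at 0.22 to 0.52 and 0.45 to 0.90 TPM. Among 6 T cell partners and co-stimulatory genes, 4 were tested, 2 were higher, 2 lower and 0 past an unadjusted p of 0.05. Icosl, a co-stimulatory ligand and the most abundant of them, was at 3.63 to 4.57 TPM in control and 4.05 to 6.69 TPM in Prdm16SMKO libraries.

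**Figure D4:**
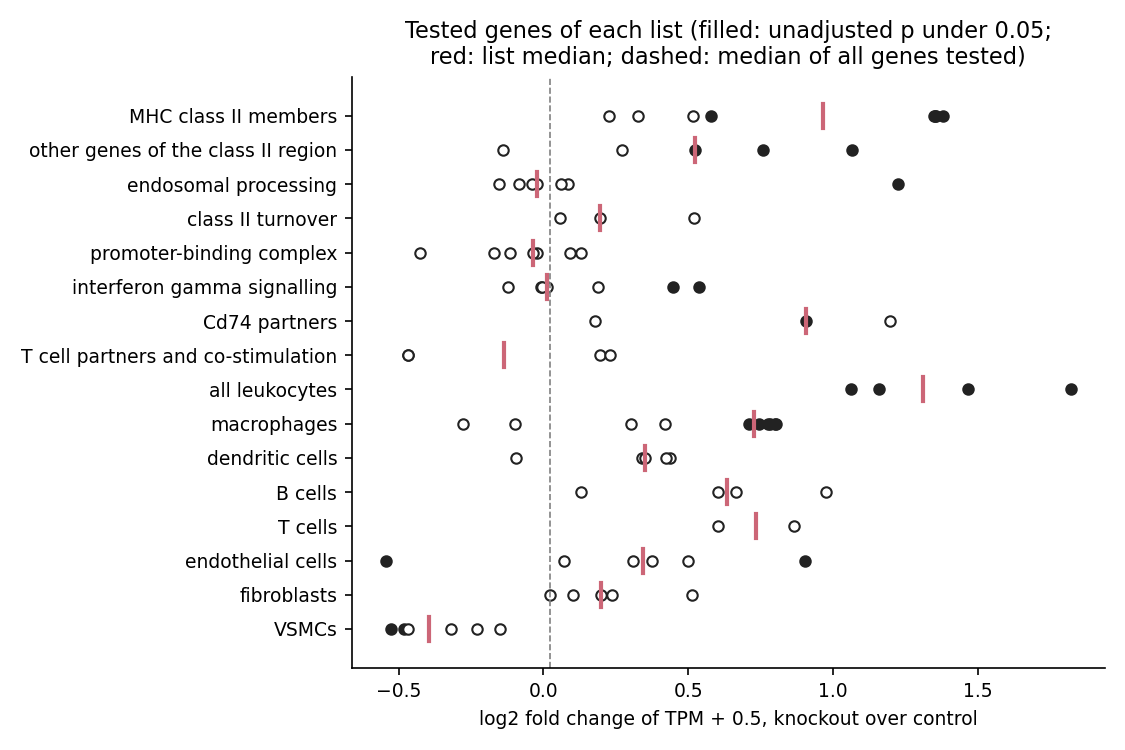
Log2 fold change of TPM + 0.5, knockout over control, on the x axis for every tested gene of the class II members and of 15 lists, filled where the unadjusted limma p was under 0.05, with a red bar at the list median and a dashed line at the median of all genes tested. The class II members have a median of 0.96, the leukocyte list 1.31 and the macrophage list 0.73, while the promoter-binding complex has -0.03 and interferon gamma signalling 0.01.

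Markers of cells that could carry class II were higher in the same libraries for some lists. All 4 genes of the leukocyte list (Ptprc, Cd52, Laptm5 and Coro1a) were higher with an unadjusted p under 0.05 (limma) and non-overlapping groups, and their median log2 fold change was 1.31. Of all genes tested, 54.2% were higher in Prdm16SMKO, 4.88% were higher with an unadjusted p under 0.05, and 7.02% were higher with non-overlapping groups. Their summed TPM was 6.32 to 13.4 in control and 22.9 to 31.2 in Prdm16SMKO libraries. Ptprc, the common leukocyte antigen CD45, was at 1.47, 0.63 and 0.60 TPM in control and at 1.51, 3.93 and 2 TPM in Prdm16SMKO libraries (limma, adjusted p = 0.449). None of the leukocyte list passed an adjusted p under 0.05 (limma). The part of leukocyte number in the class II difference was not tested.

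The macrophage list of 10 genes had 8 higher and 2 lower, with a median of 0.73 and 0 past the adjusted test (limma). At an unadjusted p under 0.05 (limma) 6 were higher, against 4.88% of all genes tested. The summed TPM of the list overlapped between the groups, at 111 to 160 in control and 157 to 265 in Prdm16SMKO libraries. Mertk, 1 of the 2 lower genes, was at 32.8, 37.3 and 29.9 TPM in control and at 29.1, 30.0 and 23.35 TPM in Prdm16SMKO libraries. Its log2 fold change was -0.28 (limma, adjusted p = 0.752). At that level it made up a large part of the sum. The overlap of the sums came from Prdm16SMKO replicate 1, at 157, which lay below control replicate 1, at 160. Adgre1 (F4/80) was at 1.87, 1.33 and 0.93 TPM in control and at 1.85, 3.44 and 2.66 TPM in Prdm16SMKO libraries, which overlap. Cd68 was at 3.02, 3.19 and 2.02 TPM and at 3.44, 8.29 and 4.26 TPM, and C1qa, a complement subunit made by tissue macrophages, at 26.7, 29.1 and 16.1 TPM and at 31.5, 50.8 and 42.3 TPM, with no overlap for either. Csf1r, the receptor for macrophage colony-stimulating factor, was at 6.86, 7.33 and 7.45 TPM in control and at 7.06, 13.6 and 9.81 TPM in Prdm16SMKO libraries, and its groups overlapped.

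Of the 9 dendritic cell markers, 5 were tested, 4 were higher, 1 lower and 0 past an unadjusted p of 0.05, and the summed TPM was 8.18 to 11.3 in control and 11.9 to 14.8 in Prdm16SMKO libraries. Zbtb46, a transcription factor of dendritic cells that endothelial cells also express, made up most of this sum, at 6.66, 8.71 and 5.70 TPM in control and 8.55, 8.90 and 9.27 TPM in Prdm16SMKO libraries, which overlap. Flt3 was at 0.03 to 0.22 TPM over the 6 libraries. Itgax (CD11c) was at 0.05 TPM in each control and at 0.24, 0.33 and 1.08 TPM in Prdm16SMKO libraries, and Cd209a was at 1.11, 0.12 and 0.33 TPM and at 0.15, 1.19 and 1.07 TPM.

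For B cells the summed TPM of 8 markers was 3.69 to 12.6 in control and 9.15 to 15.3 in Prdm16SMKO libraries, and 4 of 4 tested genes were higher with 0 past an unadjusted p of 0.05. Cd79a, a chain of the B cell receptor, was at 0.99, 0 and 0 TPM in control and at 1.32, 0.97 and 0.56 TPM in Prdm16SMKO libraries. Ms4a1 was at 0.04 to 0.36 TPM over the 6 libraries. T cell markers summed to 0.15 to 2.95 TPM in control and 2.76 to 4.27 TPM in Prdm16SMKO libraries, with Cd3e at 0.34, 0.06 and 0 TPM in control and at 0.39, 0.62 and 0.28 TPM in Prdm16SMKO libraries.

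Of the wall's own cells, 5 of 6 endothelial genes were higher and 1 lower, with 1 in each direction at an unadjusted p under 0.05 and 0 past the adjusted test (limma). Over all genes tested, 4.88% were higher and 3.85% lower at that unadjusted threshold. The lower gene, Cldn5, a tight junction protein gene, was at 48.7, 40.6 and 41.2 TPM in control and at 28.1, 33.3 and 27.7 TPM in Prdm16SMKO libraries, with no overlap (log2 fold change -0.54; limma, adjusted p = 0.295). The higher one, Vwf (von Willebrand factor), was at 25.5, 39.7 and 51.3 TPM in control and at 54.5, 107 and 59.6 TPM in Prdm16SMKO libraries, also with no overlap. Pecam1 (CD31) was at 68.7, 72.7 and 99.6 TPM in control and at 81.3, 199.98 and 86.9 TPM in Prdm16SMKO libraries, which overlap. All 6 VSMC genes were lower and 5 of 5 fibroblast genes higher, with medians of -0.39 and 0.20 and 0 past the adjusted test in either list (limma). Of all genes tested, 54.2% were higher in Prdm16SMKO. Mesothelial markers summed to at most 0.44 TPM in any library. The parts of these cells in the class II difference were not tested.

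Set against such markers library by library, the sum of the 4 abundant class II genes gave different pictures. Its ratio to Ptprc was 76.4, 155 and 104 in control and 107, 81.2 and 116 in Prdm16SMKO libraries, and its ratio to Laptm5, a lysosomal membrane protein gene of leukocytes, was 21.6, 24.6 and 22.6 in control and 21.5, 24.0 and 29.3 in Prdm16SMKO libraries. Both overlapped between the groups, with log2 differences of -0.10 and 0.11 (exact permutation p = 1 and p = 0.7).

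Against macrophage genes the ratio of the class II sum was higher in every Prdm16SMKO library than in any control. The ratio to the sum of C1qa, C1qb and C1qc was 1.86, 1.55 and 1.698 in control and 2.35, 2.76 and 2.54 in Prdm16SMKO libraries, a log2 difference of 0.58. The ratio to Csf1r was 16.4, 13.3 and 8.40 in control and 22.8, 23.6 and 23.7 in Prdm16SMKO libraries, a log2 difference of 0.93, and that to Lyz2, the lysozyme of myeloid cells, differed by 0.56. The 3 ratios had non-overlapping groups and an exact permutation p = 0.1 each, or 0.243 after adjustment over the 17 ratios. The ratio to the whole macrophage list, Mertk included, was 0.704, 0.668 and 0.562 in control and 1.03, 1.21 and 1.15 in Prdm16SMKO libraries, with the same p-values.

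**Figure D5:**
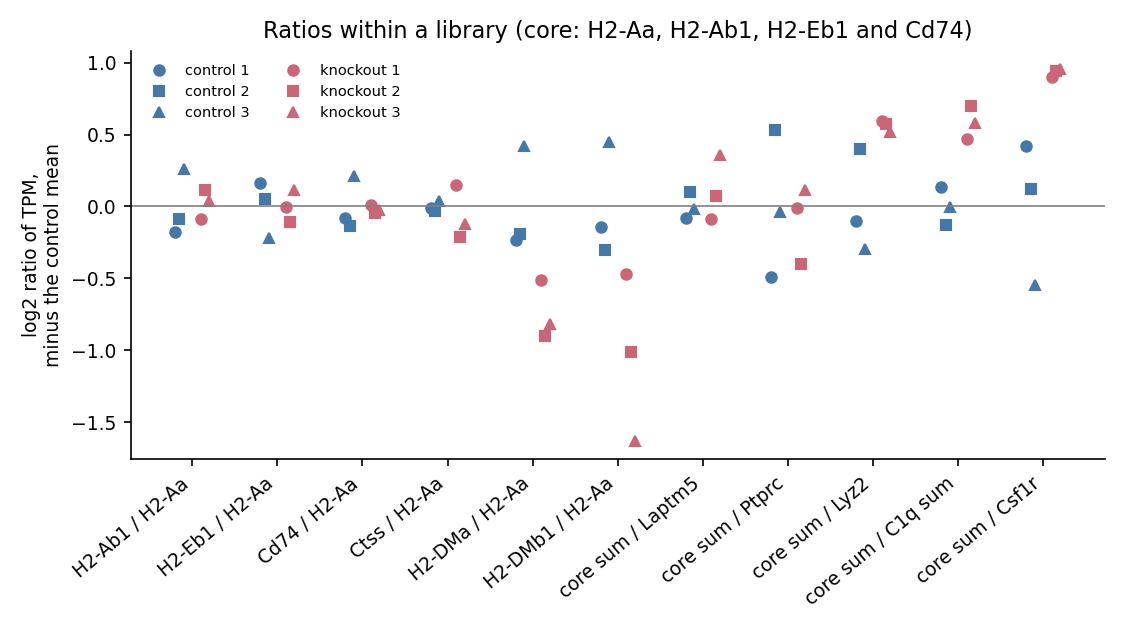
Log2 ratio of TPM within each library minus the mean of the control libraries (y axis), for ratios of single genes to H2-Aa and of the summed TPM of H2-Aa, H2-Ab1, H2-Eb1 and Cd74 (core sum) to leukocyte and macrophage genes, with control in blue and knockout (Prdm16SMKO) in red. Ratios of Ctss and of the other abundant class II genes to H2-Aa overlap between the groups, those of H2-DMa and H2-DMb1 lie lower in the knockouts, and those of the core sum to Lyz2, C1q genes and Csf1r lie higher.

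To find genes that followed the same course over the 6 libraries, the mean centred log2 profile of the 4 abundant class II genes was compared with that of the 9665 genes whose mean reached 5 TPM, by the root mean square difference over the 6 libraries. The 5 closest genes outside the pathway were Ctss (0.139), Laptm5 (0.180), Hlf (0.249), Adh1 (0.268) and Psmb8 (0.301), where 0 is an identical profile. The profile itself was higher in every Prdm16SMKO library than in any control, so genes close to it are higher in Prdm16SMKO by selection. Their fold changes and p-values describe the genes picked and are no separate result. Within the pathway, H2-Aa (0.035), Cd74 (0.075), H2-Ab1 (0.116) and H2-Eb1 (0.147) define the profile and are close to it by construction, whereas H2-DMa was at 0.451 and H2-DMb1 at 0.645. Hlf, a PAR bZIP transcription factor, was at 19.3, 13.1 and 8.03 TPM in control and at 30.4, 36.9 and 29.5 TPM in Prdm16SMKO libraries (log2 fold change 1.31; limma, adjusted p = 0.128). Adh1, an alcohol and retinol dehydrogenase, was at 15.8, 12.98 and 11.0 TPM in control and at 17.8, 33.4 and 36.4 TPM in Prdm16SMKO libraries (log2 fold change 1.06; limma, adjusted p = 0.234).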

How the data were processed

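Polyadenylated RNA of abdominal aorta was sequenced as 3 control and 3 Prdm16SMKO libraries. The authors deposited TPM values per gene, rounded to 2 decimals, with no counts or read depth. The submitters' processing notes name bcl2fastq, cutadapt 2.3, FastQC 0.11.8, STAR 2.7.8a, RSEM 1.3.3, MultiQC 1.7 and GRCm38. The annotation release and the use of strand in counting are not given in the sources used here. The total of each library is fixed by the unit, so a large share in one gene class lowers all others.

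Positions came from GENCODE M21 (GRCm38), matched on the Ensembl identifier. Genes whose mean reached 0.5 TPM were compared on log2(TPM + 0.5) with limma 3.58.1 in R 4.3.3, using moderated variances with a trend on expression, two-sided p-values and Benjamini-Hochberg adjustment over all 15775 genes, with a call at an adjusted p under 0.05. Single values were also compared by an exact two-sided permutation test. The fit was tested on simulated data. All members are named. From the pathway lists, genes with an unadjusted p under 0.05 and 1 or 2 others of highest mean are named, from the marker lists the defining markers, and from the likeness ranking the 5 closest genes. A pair of genes that fall under this rule is not reported here. Values of Lyz2, C1qb, C1qc, Mertk, Rfx5, Cldn5, Vwf, Zbtb46, H2-Ea and Ifng are given outside this rule, chosen after they were seen. The members and lists were chosen with earlier results of these data known. The letters GATTGG were added to the motif search after the sequences were seen. In all, 17 alternatives were computed: pseudocounts of 0.1 and 1, no minimum and a minimum mean of 2 TPM, 2 other scalings, TPM without mitochondrial and 45S transcripts, 3 other variance or weight choices, a replicate block, and each library left out. Tables and plots were made with matplotlib 3.10.9, scipy 1.17.1, pandas 2.3.3 and numpy 2.4.6 under Python 3.11.15. No pair of libraries had identical values.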

Additional observations from a re-analysis of the deposited data

How the results depend on the processing

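The number of members past an adjusted p under 0.05 (limma) was 0 under 15 of the 17 alternatives and 2 under the other 2. With array weights, where control replicate 1 had a weight of 10.1 and the other libraries 0.414 to 0.954, the 2 were H2-Ab1 (adjusted p = 0.0303) and Cd74 (0.0317), and 494 genes were called in all. Without Prdm16SMKO replicate 1 the same 2 genes passed, H2-Ab1 at 0.0297 and Cd74 at 0.0373, so that leaving out 1 library gave 0 to 2 members. Over all alternatives the adjusted p of Cd74 ran from 0.0317 to 0.276, that of H2-Ab1 from 0.0297 to 0.343, that of H2-Aa from 0.0568 to 0.375 and that of H2-Eb1 from 0.117 to 0.507.

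The median log2 fold change of the members tested was 0.96. It was 0.69 with array weights, 1.35 with a minimum mean of 2 TPM (6 members tested), 0.61 with no minimum (10 tested), and 0.59 to 1.14 when 1 library was left out, lowest without control replicate 2, where 9 members were tested. That library also moved the median of all genes from 0.02 to 0.11 and took H2-Ob from 0.23 to -0.008, against 0.50 without control replicate 3, the highest value with 1 library left out. The other 7 members tested kept a positive value under every alternative in which they were tested. H2-Oa and H2-DMb2 were not followed over the alternatives one by one.

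The replicate block left 0 members called and 5 at an unadjusted p under 0.05, and 4 genes in all were called against 56 without it. The same-numbered control and Prdm16SMKO libraries correlated at -0.13, -0.11 and 0.02 in their deviations, against -0.17 to 0.24 for the other pairs. Deviations from means of 3 libraries are tied to each other, so these values cannot exclude a shared batch or litter. The labels do not say that the numbers mark pairs, and the main fit used none. Genes called over the whole table ran from 4 under the block to 494 with array weights: 10 with no minimum, 33 with no trend, 77 with a minimum mean of 2 TPM, 112 with robust variances, 123 without mitochondrial and 45S transcripts, 129 with quantile normalization (46 higher), 153 with median-of-ratios size factors (60 higher, against 29 of 56), and 5 to 61 when 1 library was left out. The cause of these differences was not tested. TPM values carry no depth, so the precision of the members under 1 TPM is unknown.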
